A study of Mus musculus with 12 samples.

Results

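Isolated mouse glomeruli were profiled for the 34 genes of the constitutive proteasome: Psma1 to Psma7, Psmb1 to Psmb7, Psmc1 to Psmc6 and Psmd1 to Psmd14. The genes were chosen by name, all 34 of 34 were measured, and each was represented by its probe set (a group of short oligonucleotides on the array) with the highest mean over the 12 arrays, among 18194 genes treated in the same way. All groups were glomeruli of male C57BL/6J mice aged 6 to 8 weeks that had been cultured, serum starved and exposed for 12 hours to murine TNF at 50 ng/ml, 5000 glomeruli per culture. The 4 genotypes, with 3 arrays each, were wildtype, Tnfr1-/- (allele Tnfrsf1atm1Mak, lacking TNF receptor 1), Tnfr2-/- (allele Tnfrsf1btm1Mwm, lacking TNF receptor 2) and Tnfr1,2-/- (lacking both). Both were B6.129 strains with the gene deleted in the whole animal, and whether glomeruli of several mice were pooled into a preparation is not given in the sources used here. The Tnfr1,2-/- mice and the wildtype mice were both bred from crosses of the single mutants. The 3 RNA preparations of a genotype were independent according to the methods. All 12 arrays saw TNF, and none of unstimulated glomeruli was analysed here. The comparisons with wildtype therefore ask which levels depend on a receptor while TNF is present.

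The proteasome degrades proteins that carry ubiquitin chains. Its core particle is a barrel of alpha rings, which gate the entrance, and beta rings, of which Psmb5, Psmb6 and Psmb7 carry the chymotrypsin-like, caspase-like and trypsin-like cutting sites. The regulatory particle caps the barrel: its ATPase ring (Psmc1 to Psmc6) unfolds substrates, and its other subunits bind and remove ubiquitin. In cells exposed to inflammatory cytokines, Psmb8, Psmb9 and Psmb10 can take the places of Psmb5, Psmb6 and Psmb7 and form the immunoproteasome, which shapes peptides for MHC class I. The proteasome also destroys the inhibitors of NF-kB downstream of TNF receptors. Of the 34 genes, 31 encode subunits of the mature particle, while Psmd5, Psmd9 and Psmd10 encode base assembly chaperones, which help to build the regulatory particle and then leave it. Psmd10, also known as gankyrin, is the ankyrin-repeat protein among these chaperones.

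Promoter sequence was taken from RefSeq (build GRCm38.p6) for the gene that was called, Psmd10, and for the catalytic subunits with a window in that table, Psmb5 and Psmb6. The 250 bases before the annotated start are given 5′ to 3′ on the strand of the gene. Capitals mark the letters of 4 motifs searched on both strands: CCAAT (the CCAAT box), CCGGAA (the core recognised by ETS factors), TGACNNNGC (the antioxidant response element) and the NF-kB motif (GGG, any 5 bases, then CC).
Psmd10, chrX:140956712-140956961, minus strand: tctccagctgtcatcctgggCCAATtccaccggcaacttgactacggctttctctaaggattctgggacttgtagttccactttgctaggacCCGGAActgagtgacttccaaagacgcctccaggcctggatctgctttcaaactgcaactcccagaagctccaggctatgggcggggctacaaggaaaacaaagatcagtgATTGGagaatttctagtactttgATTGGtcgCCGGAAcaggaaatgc
Psmb5, chr14:54617996-54618245, minus strand: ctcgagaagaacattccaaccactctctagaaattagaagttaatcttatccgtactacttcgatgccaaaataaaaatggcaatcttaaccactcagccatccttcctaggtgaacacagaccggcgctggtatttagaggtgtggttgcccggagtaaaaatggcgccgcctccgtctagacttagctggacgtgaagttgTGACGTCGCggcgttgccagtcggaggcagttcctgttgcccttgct
Psmb6, chr11:70525107-70525356, plus strand: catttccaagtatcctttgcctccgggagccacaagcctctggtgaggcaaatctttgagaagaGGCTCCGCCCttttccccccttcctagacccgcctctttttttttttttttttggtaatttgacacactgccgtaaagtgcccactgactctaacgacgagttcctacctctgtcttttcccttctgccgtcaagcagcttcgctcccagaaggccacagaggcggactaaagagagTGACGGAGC
The Psmd10 stretch holds 3 CCAAT boxes and 2 CCGGAA cores, with no match to the other motifs. The Psmb5 stretch holds 1 antioxidant response element, and the Psmb6 stretch holds 1 antioxidant response element and 1 NF-kB match. Windows of 300 bases (250 before and 50 after the start) were found for 28 of the 34 genes, 30 windows in all. CCGGAA was present in 16 of these 30 windows (53.3%), against 14.9% of all 32851 windows in the table. The NF-kB motif was present in 16 (53.3%, against 50.8% of all windows), CCAAT in 11 (36.7%, against 37.4%) and the antioxidant response element in 5 (16.7%, against 12.4%). In the windows of the 28 genes, 1 pair of overlapping matches was of different motifs and 12 pairs were of the same motif. Some of the same-motif pairs were the same letters read on both strands. These are matches of letters and not binding sites.

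The array values are log2 signals normalized by the authors with the robust multichip average over all 12 arrays. Array medians lay between 5.59 and 5.64, and values over all probe sets between 1.93 and 14.1. The probe set of Tnfrsf1a, which encodes TNF receptor 1, gave 10.23 to 10.73 on wildtype arrays, 9.11 to 9.61 on Tnfr1,2-/- arrays, 9.24 to 10.18 on Tnfr1-/- arrays and 10.60 to 10.82 on Tnfr2-/- arrays. That of Tnfrsf1b gave 7.41 to 7.77 in wildtype, 5.37 to 5.57 in Tnfr1,2-/-, 6.76 to 8.36 in Tnfr1-/- and 4.95 to 5.66 in Tnfr2-/-. Each receptor gene was thus lower, without overlap with wildtype, in the genotypes labelled as lacking it, although no source used here places these probes relative to the deleted parts. The arrays fell into 2 sets by the difference between the 3′ and 5′ probe sets of the beta-actin control, a measure of RNA integrity and of labelling. The difference was 0.667 to 1.005 on the 7 arrays of set 1 and 1.82 to 2.30 on the 5 arrays of set 2, which are replicate 3 of every genotype and replicate 2 of Tnfr1,2-/-. The mean of the 6 podocyte markers measured was 10.8 to 11.1 on wildtype arrays, 11.3 to 11.5 in Tnfr1,2-/-, 9.97 to 11.4 in Tnfr1-/- and 10.5 to 11.2 in Tnfr2-/-. The value of 9.97 was that of Tnfr1-/- replicate 2, which stood apart, with Wt1 at 8.98 against 11.20 and 11.39 and Ptpro at 9.43 against 12.00 and 12.02 on the other Tnfr1-/- arrays. The 8 tubular markers had group means of 5.63 to 5.96, and the 5 neutrophil markers had group means of 4.31 to 4.90, below the array medians. Single tubular markers were brighter and uneven: Fxyd2 ranged from 7.14 to 9.78 and Umod from 5.75 to 8.34 over the 12 arrays.

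The only gene of the 34 that was called in any comparison was Psmd10. Its log2 level was 10.59, 10.50 and 10.96 on the wildtype arrays, 9.56, 9.99 and 9.08 on the Tnfr1,2-/- arrays, 9.45, 9.21 and 9.65 on the Tnfr1-/- arrays, and 10.56, 10.80 and 10.58 on the Tnfr2-/- arrays. All 6 arrays without TNF receptor 1 lay below all 6 arrays with it, and Tnfr2-/- glomeruli lay within the range of wildtype. Psmd10 fell 2.20-fold in Tnfr1,2-/- glomeruli (log2 change -1.14, SE 0.222, limma adjusted p = 0.0298). It fell 2.37-fold in Tnfr1-/- glomeruli (log2 change -1.24, SE 0.222, limma adjusted p = 0.0187). In Tnfr2-/- glomeruli the log2 change was -0.04, with a 95% interval from -0.52 to 0.45. Averaged over the 2 backgrounds that lacked TNF receptor 1 against the 2 that had it, 6 arrays a side, Psmd10 was 2.26-fold lower (log2 change -1.17, SE 0.157, limma adjusted p = 0.00121). Psmd10 has a single probe set, so no other probe set checks this value. In glomeruli, which mix several cell types, fewer cells of a type and less RNA per cell cannot be told apart.

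Tnfr1-/- replicate 2, the array with low podocyte markers, also had the lowest Psmd10 of its genotype, and without it the log2 change in Tnfr1-/- was -1.13 (limma adjusted p = 0.0829). The calls against wildtype rested on few arrays. With 1 array left out and no block for the replicate number, the adjusted p of Psmd10 rose to between 0.0666 and 0.124 in Tnfr1,2-/- glomeruli for each array except Tnfr1,2-/- replicate 2, and to between 0.0518 and 0.0860 in Tnfr1-/- glomeruli for each array except Tnfr1-/- replicate 3, over the arrays of the 2 genotypes compared. In Tnfr1,2-/- it was also 0.0515 without Tnfr1-/- replicate 1 and 0.0520 without Tnfr2-/- replicate 1, which enter through the shared estimate of the spread. With 1 array left out the log2 change was -1.36 to -0.91 in Tnfr1,2-/- and -1.35 to -1.11 in Tnfr1-/-. With array weights it was -0.74 in Tnfr1,2-/- and still called. For the 6 against 6 arrays the adjusted p was 0.00067 to 0.00565 with any array left out. Within array set 1 the log2 difference of Psmd10 from wildtype was -0.98 in Tnfr1,2-/- (1 array against 2) and -1.21 in Tnfr1-/- (2 against 2). Within set 2 it was -1.43 (2 against 1) and -1.31 (1 against 1). In Tnfr2-/- it was 0.13 in set 1 and -0.38 in set 2.

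**Figure D1:**
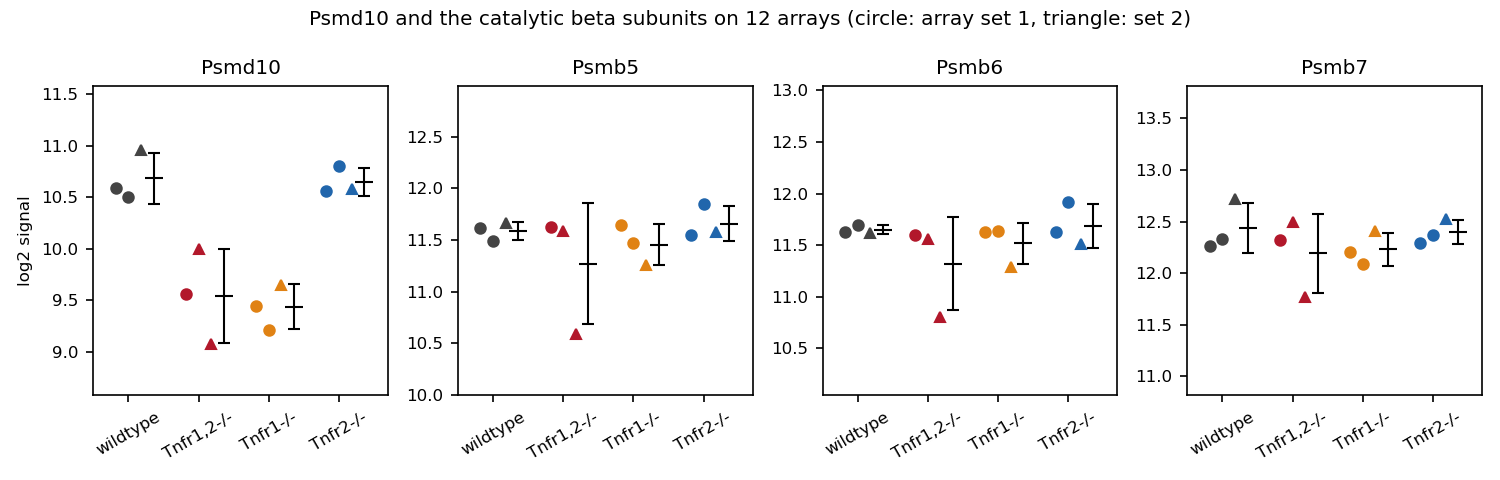
Log2 signal (y axis) of Psmd10 and of the catalytic subunits Psmb5, Psmb6 and Psmb7 on each array, by genotype (x axis). Circles are array set 1 and triangles array set 2, bars give the mean and SD of 3 arrays, and every panel spans 3 log2 units. Psmd10 separates the 6 arrays without TNF receptor 1 (9.08 to 9.99) from the 6 with it (10.50 to 10.96), and the catalytic subunits overlap except for Psmb6 in Tnfr1,2-/- against wildtype.

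Cell type markers moved along with Psmd10 in part. The mean level of the 5 measured neutrophil markers was 4.74 to 4.89 on wildtype arrays, 4.06 to 4.48 in Tnfr1,2-/-, 4.22 to 4.46 in Tnfr1-/- and 4.73 to 5.02 in Tnfr2-/-. Of these, Camp (log2 change -1.78 over 6 against 6 arrays) and S100a8 (-1.22) were called lower without TNF receptor 1, from group means of at most 6.56 and 5.55, while Mpo lay between 3.26 and 4.15 on every array. The other neutrophil markers were not called: S100a9 averaged 4.57 in Tnfr1,2-/- and 4.37 in Tnfr1-/-, against 4.21 in wildtype and 4.22 in Tnfr2-/-, and Ngp averaged 4.65 and 4.63, against 4.71 and 4.54. The lower list mean thus came from 2 of the 5 markers. The mean of the 8 endothelial markers was 8.48 to 9.05 in wildtype, 8.71 to 9.57 in Tnfr1,2-/-, 9.02 to 9.87 in Tnfr1-/- and 8.91 to 9.52 in Tnfr2-/-. The 8 mesangial and smooth muscle markers had means of 9.23 to 9.85 in wildtype and 9.37 to 9.91 in Tnfr1,2-/-. In Tnfr1-/- they were 9.46 to 9.89, and in Tnfr2-/- 9.35 to 9.70. Of these, Itga8, an integrin of mesangial cells, was called higher without TNF receptor 1 (log2 change 0.98). The list did not move as a whole with Itga8. In Tnfr1,2-/-, Tnfr1-/-, wildtype and Tnfr2-/- glomeruli, in this order, Des averaged 8.33, 9.37, 9.41 and 9.31. Acta2 averaged 12.05, 11.00, 11.41 and 11.25, Pdgfrb 12.04, 12.15, 11.95 and 12.01, and Gata3 9.51, 10.31, 9.48 and 9.60. The mean of the 8 macrophage markers ranged from 7.80 to 9.32 over the arrays, with 0 called, and none of the 6 podocyte, 8 tubular and 5 lymphocyte markers was called either. The part of these differences in the level of Psmd10 was not tested.

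Apart from Psmd10, none of the 34 genes was called in any comparison (adjusted p under 0.05 over 18194 genes and a change of at least 1.5-fold). In Tnfr1,2-/- glomeruli 1 of 34 was called, against 1.3% of all genes, and the same gene was the only 1 at an unadjusted p under 0.05 (8.44% of all genes). The 3 mutant arrays lay below the 3 wildtype arrays for 2 genes, Psmd10 and Psmb6 (5.77% of all genes), and above them for 0 (6.61% of all genes). In Tnfr1-/- glomeruli 1 was called (1.2% of all genes), again the only 1 at an unadjusted p under 0.05 (6.35%). Arrays did not overlap for 4 genes, all lower: Psmb4, Psmd8, Psmd9 and Psmd10 (5.51% of all genes), and 0 were higher (5.5%). In Tnfr2-/- glomeruli limma called 0 (0% of all genes), with 0 at an unadjusted p under 0.05 (0.704%), and the significance analysis of microarrays also called 0. No gene of the 34 separated from wildtype there in either direction (2.62% lower and 2.32% higher among all genes). The fit did not call the deleted gene Tnfrsf1b in Tnfr2-/- either, at 4.92-fold lower (limma adjusted p = 0.125). Nor did it call Tnfrsf1a in Tnfr1-/-, at 1.76-fold lower (limma adjusted p = 0.217). The lack of calls against wildtype thus does not show a lack of change.

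Comparisons by receptor used all 12 arrays. For loss of TNF receptor 1, 1 of 34 was called (2.52% of all genes) and 2 had an unadjusted p under 0.05 (11% of all genes): Psmd10, and Psma2, an alpha subunit with a log2 change of -0.27 (SE 0.121, limma adjusted p = 0.437). Arrays of the 2 sides did not overlap for Psmd10 alone (1.78% of all genes lower and 1.2% higher). For loss of TNF receptor 2, 0 were called (0.0275% of all genes) and 0 had an unadjusted p under 0.05 (0.967%). The interaction of the 2 loci gave 0 calls (0% of all genes), with 0 at an unadjusted p under 0.05 (1.35%). The 95% intervals of the other 33 genes for loss of TNF receptor 1 lay within -1.30 and 0.37, the lowest bound being that of the most variable gene, Psmd3. With the replicate number as a block, Psmd10 was again the only gene of the 34 called in Tnfr1,2-/- (3.28% of all genes), in Tnfr1-/- (2.4% of all genes) and for loss of TNF receptor 1 (4.01% of all genes), and the number at an unadjusted p under 0.05 was 5 (16.9% of all genes), 1 (9.49%) and 8 (17.4%). The limma adjusted p of Psmd10 with this block was 0.0179, 0.0126 and 0.000811.

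Many small differences had the same sign. The log2 change was below 0 for 28 of the 34 genes in Tnfr1,2-/- (82.4%, against 50.3% of all genes), for 33 in Tnfr1-/- (97.1%, against 51.1%) and for 18 in Tnfr2-/- (52.9%, against 49.7%). The median was -0.24 in Tnfr1,2-/-, -0.19 in Tnfr1-/- and -0.00 in Tnfr2-/-, against medians of -0.00, -0.00 and 0.00 over all genes. The first 3 comparisons share the wildtype arrays. Within genotypes the 34 genes varied together (median pairwise correlation 0.53, with 443 of 561 pairs above 0). The sign counts are therefore not counts of independent genes. For loss of TNF receptor 1 over 12 arrays, 33 of 34 changes were below 0 with a median of -0.21, and for loss of TNF receptor 2 the median was 0.00 with 17 below 0. The mean of the 34 genes varied between arrays of a genotype with an SD of 0.184. Set against the wildtype array of the same replicate number, that mean differed by -0.14, -0.17 and -0.33 on the Tnfr1-/- arrays, by -0.05, 0.13 and -0.75 on the Tnfr1,2-/- arrays and by -0.01, 0.16 and -0.11 on the Tnfr2-/- arrays. It was lower than wildtype in each of the 3 numbers in Tnfr1-/- alone.

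The median in Tnfr1,2-/- depended on single arrays. The mean deviation of the 34 genes from their own averages was 0.01, 0.01 and 0.30 on the wildtype arrays, -0.04, 0.14 and -0.45 on the Tnfr1,2-/- arrays, -0.13, -0.16 and -0.03 on the Tnfr1-/- arrays, and 0.00, 0.17 and 0.19 on the Tnfr2-/- arrays. Wildtype replicate 3 was the highest and Tnfr1,2-/- replicate 3 the lowest, with 3 and 26 of the 34 genes below their own average. Without Tnfr1,2-/- replicate 3 the median in Tnfr1,2-/- was -0.016, and without wildtype replicate 3 it was -0.10. With array weights, which count deviating arrays less, it was 0.061 with 12 of 34 genes below 0. Without wildtype replicate 3 the median in Tnfr1-/- was -0.08 with 23 genes below 0, and that in Tnfr2-/- was 0.13 with 6 below 0. For loss of TNF receptor 1 the median was -0.11 without Tnfr1,2-/- replicate 3, with 30 genes below 0, and -0.08 with array weights, with 21 below 0. In Tnfr1-/- the median lay between -0.25 and -0.08 with any array left out. With the array set as a block, 33 of 34 genes were below 0 in Tnfr1,2-/- (median -0.24), 33 in Tnfr1-/- (median -0.19) and 34 for loss of TNF receptor 1 (median -0.22).

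The array sets gave unlike values as well. In set 1 the median difference from wildtype was 0.01 in Tnfr1,2-/- (16 of 34 genes below 0), -0.13 in Tnfr1-/- (30 below 0) and 0.08 in Tnfr2-/- (3 below 0). In set 2, where wildtype is represented by replicate 3 alone, it was -0.45 (34 below 0), -0.34 (33 below 0) and -0.13 (29 below 0). Within genotypes, 10 of the 34 genes were lower and 24 higher in set 2 than in set 1, with a median of 0.17 against 0.05 over all genes. The 3 genes past 1.5-fold (13.9% of all genes) were Psmd3 (log2 difference -1.16), Psma5 (0.72) and Psmd14 (0.60). The part of RNA integrity in these differences was not tested.

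**Figure D2:**
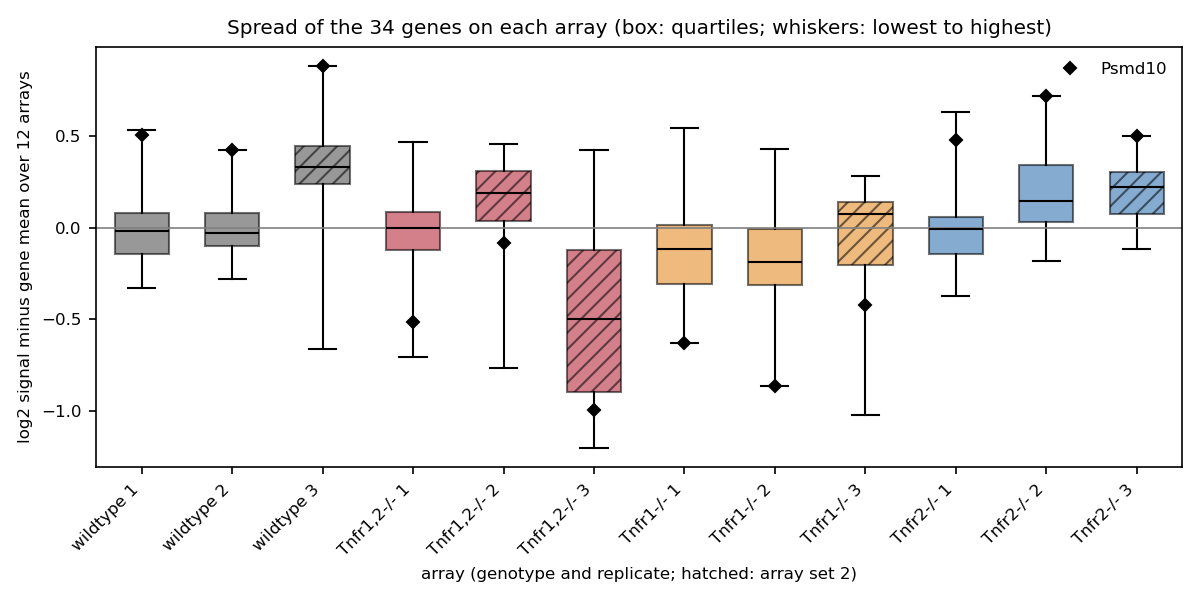
Log2 signal minus the gene's mean over 12 arrays (y axis) for the 34 genes on each array (x axis). Boxes give the median and quartiles, whiskers the lowest and highest gene, hatching array set 2 and diamonds Psmd10. The whole box is lowest on Tnfr1,2-/- replicate 3 (mean -0.45) and highest on wildtype replicate 3 (mean 0.30), while Psmd10 is below its average on all 6 arrays without TNF receptor 1 and above it on the other 6.

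The 7 genes of the alpha ring, which forms the gate of the core particle, had log2 changes from -0.27 to 0.10 in Tnfr1,2-/- (median -0.10), from -0.38 to -0.14 in Tnfr1-/- (median -0.31) and from -0.03 to 0.01 in Tnfr2-/- (median -0.00). Those with the largest changes in Tnfr1-/- were Psma5 and Psma7. The level of Psma5 was 11.18, 11.33 and 11.93 in wildtype, 10.65, 11.70 and 11.79 in Tnfr1,2-/-, 10.92, 10.86 and 11.52 in Tnfr1-/-, and 11.15, 11.51 and 11.81 in Tnfr2-/-. The groups overlapped, and replicate 3 of each genotype was the highest. Psma7 was 10.64, 10.84 and 11.41 in wildtype, 10.44, 11.12 and 10.51 in Tnfr1,2-/-, 10.41, 10.47 and 10.86 in Tnfr1-/-, and 10.57, 11.16 and 11.14 in Tnfr2-/-. Its log2 change in Tnfr1-/- was -0.38 with the arrays overlapping, as for Psma5, and neither passed the test.

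By their brightest probe sets, all 7 genes of the beta ring had log2 changes below 0 in both genotypes without TNF receptor 1, from -0.42 to -0.12 in Tnfr1,2-/- and from -0.32 to -0.08 in Tnfr1-/-, with 0 called. In Tnfr2-/- they ranged from -0.04 to 0.07. The remaining probe sets of this ring gave 0.73 and 0.00 (Psmb1), 0.07 (Psmb3) and 0.03 (Psmb4) in Tnfr1,2-/-. In Tnfr1-/- the same probe sets gave 0.09, -0.04, -0.11 and -0.10. The signs in Tnfr1,2-/- thus depended on the probe set. Psmb5 was 11.62, 11.49 and 11.66 in wildtype, 11.62, 11.59 and 10.59 in Tnfr1,2-/-, 11.65, 11.47 and 11.25 in Tnfr1-/-, and 11.55, 11.85 and 11.57 in Tnfr2-/-. Only Tnfr1,2-/- replicate 3 stood clearly below the rest. Psmb6 was 11.62, 11.70 and 11.62 in wildtype, 11.60, 11.56 and 10.80 in Tnfr1,2-/-, 11.63, 11.63 and 11.29 in Tnfr1-/-, and 11.62, 11.92 and 11.51 in Tnfr2-/-. Its Tnfr1,2-/- arrays lay below wildtype, by little on replicates 1 and 2. Psmb7 was 12.27, 12.33 and 12.72 in wildtype, 12.32, 12.49 and 11.76 in Tnfr1,2-/-, 12.20, 12.09 and 12.41 in Tnfr1-/-, and 12.30, 12.37 and 12.52 in Tnfr2-/-. For loss of TNF receptor 1 the log2 change was -0.26 for Psmb5 (95% interval -0.64 to 0.12), -0.25 for Psmb6 (-0.57 to 0.08) and -0.21 for Psmb7 (-0.51 to 0.10). No catalytic subunit passed the test.

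By their brightest probe sets, the 6 ATPases ranged from -0.34 (Psmc4) to 0.15 (Psmc6) in Tnfr1,2-/-, from -0.20 to -0.05 in Tnfr1-/- and from -0.04 to 0.08 in Tnfr2-/-, with 0 called. Their remaining probe sets gave 0.24 (Psmc4), 0.15 and 0.17 (Psmc2), 0.53 and 0.63 (Psmc6) and -0.18 (Psmc1) in Tnfr1,2-/-. The 11 other subunits of the regulatory particle had medians of -0.28 in Tnfr1,2-/-, -0.12 in Tnfr1-/- and 0.04 in Tnfr2-/-. Psmd14, the deubiquitinase, had log2 changes of 0.15, -0.20 and 0.04 in these genotypes, and Psmd4, a ubiquitin receptor, -0.36, -0.12 and -0.04. The dimmer probe sets of Psmd4 gave -0.68, -0.28 and -0.16, and -0.15, 0.02 and 0.05. The scaffold subunits Psmd1 and Psmd2 did not pass the test in any comparison. Psmd1 was 10.44, 10.73 and 11.00 in wildtype, 10.85, 10.59 and 10.95 in Tnfr1,2-/-, 10.29, 11.01 and 10.86 in Tnfr1-/-, and 10.39, 10.97 and 11.09 in Tnfr2-/-. Psmd2 was 11.87, 11.78 and 11.16 in wildtype, 11.89, 11.29 and 10.80 in Tnfr1,2-/-, 11.78, 11.67 and 11.45 in Tnfr1-/-, and 11.88, 11.62 and 11.54 in Tnfr2-/-. Replicate 3 was the lowest array of Psmd2 in every genotype.

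Among the lid subunits, Psmd3 varied most. It was 10.57, 10.44 and 9.37 in wildtype, 10.51, 9.27 and 8.83 in Tnfr1,2-/-, 10.58, 10.47 and 9.01 in Tnfr1-/-, and 10.67, 10.62 and 10.11 in Tnfr2-/-. The low values were those of array set 2 in each genotype. Its within-genotype SD of 0.715 was the highest of the 34 genes, whose median was 0.317 and lowest 0.173 (Psmd5), against a median of 0.240 over all genes. The log2 changes of Psmd3, which were the largest after Psmd10 in Tnfr1,2-/- (-0.59) and the largest in Tnfr2-/- (0.34), did not pass the test. Psmd8 was 11.88, 11.91 and 11.78 in wildtype, 11.85, 11.48 and 10.64 in Tnfr1,2-/-, 11.71, 11.69 and 11.32 in Tnfr1-/-, and 11.89, 11.94 and 11.58 in Tnfr2-/-. Its Tnfr1-/- arrays lay below wildtype with a log2 change of -0.28 (limma adjusted p = 0.9999), and its Tnfr1,2-/- arrays overlapped wildtype.

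**Figure D3:**
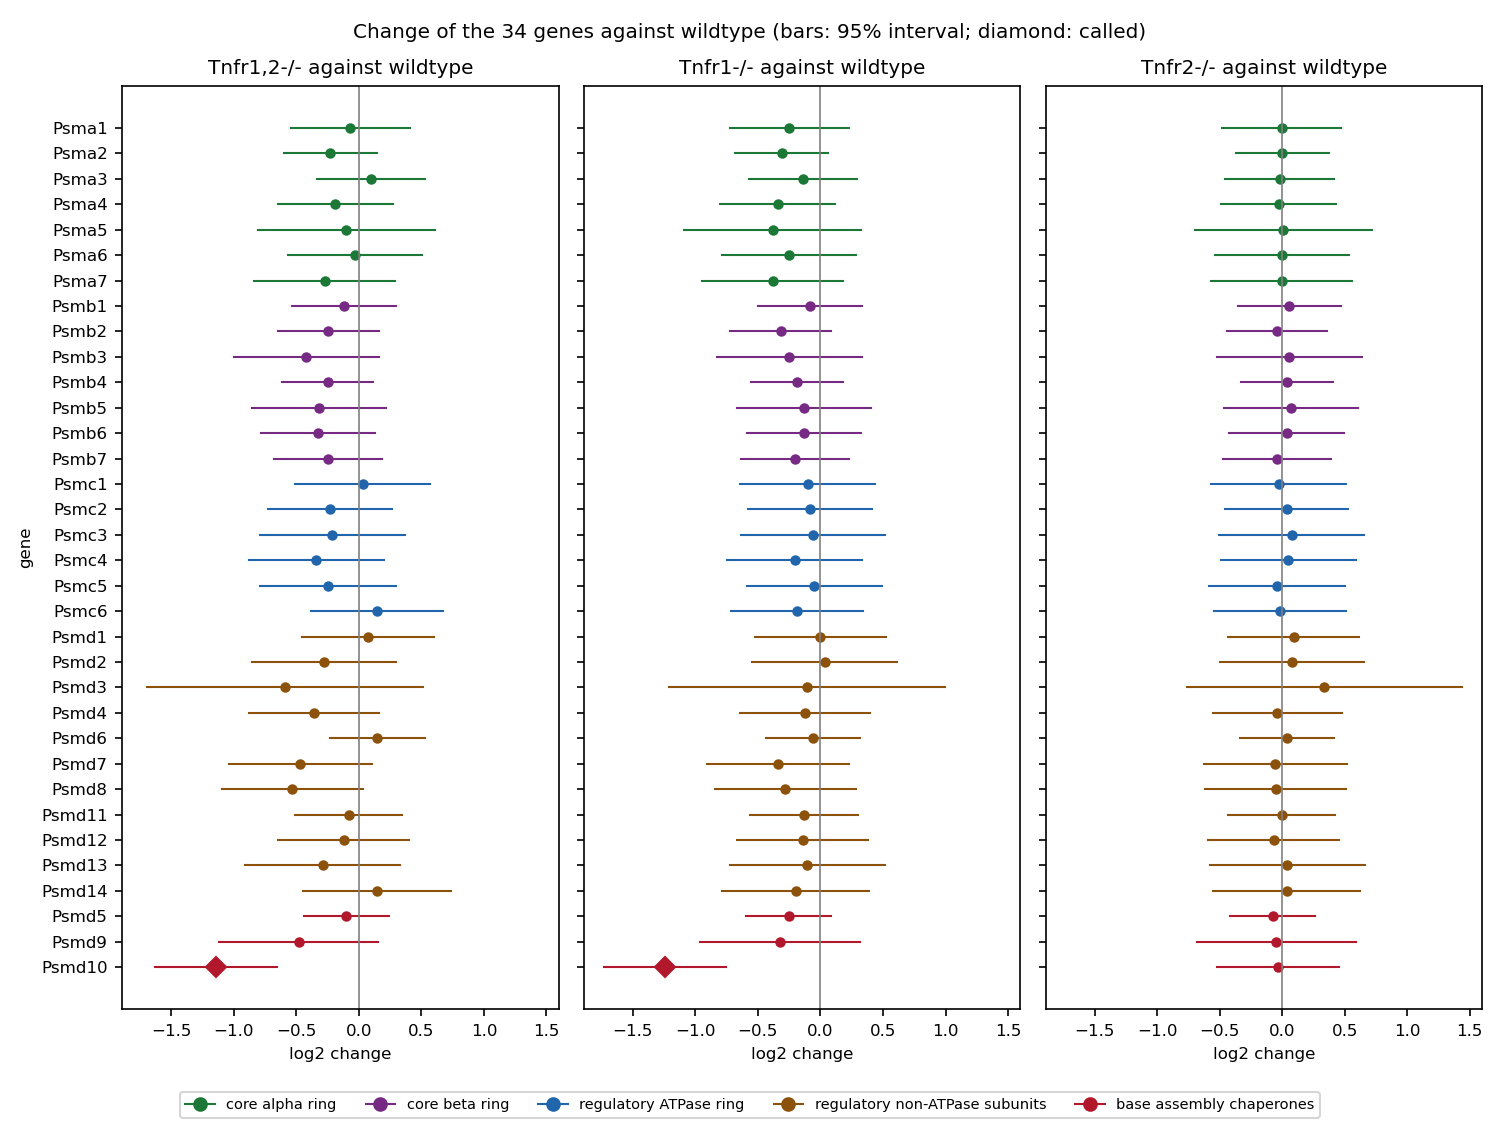
Log2 change against wildtype (x axis) of the 34 genes (y axis), coloured by subcomplex, in Tnfr1,2-/-, Tnfr1-/- and Tnfr2-/- glomeruli. Points are estimates and bars 95% intervals from limma with 3 arrays per genotype. The 2 diamonds are the calls, both of Psmd10 (-1.14 and -1.24), and the medians of the 34 genes are -0.24, -0.19 and -0.00.

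The other base assembly chaperones did not pass the test. Psmd9 had log2 changes of -0.48, -0.32 and -0.05 in Tnfr1,2-/-, Tnfr1-/- and Tnfr2-/-, and Psmd5 of -0.10, -0.25 and -0.08. The dimmer probe sets of Psmd9 did not show this fall. In the same order they gave 0.01, -0.07 and 0.13, and -0.07, 0.04 and 0.13. Of the chaperones of the core particle (Psmg1 to Psmg4 and Pomp, 5 of 5 measured), Psmg4 was lower without TNF receptor 1. It was 8.89, 8.68 and 9.02 in wildtype, 8.13, 8.16 and 7.69 in Tnfr1,2-/-, 8.38, 8.10 and 7.63 in Tnfr1-/-, and 8.86, 9.04 and 8.78 in Tnfr2-/-. The 6 arrays without TNF receptor 1 lay below the other 6. The change over 6 against 6 arrays was 1.82-fold (log2 change -0.86, SE 0.142, limma adjusted p = 0.00523), while the adjusted p was 0.0748 in Tnfr1,2-/- and 0.0974 in Tnfr1-/- against wildtype. By the significance analysis of microarrays, the paper lists Psmg4 as lower in Tnfr1,2-/- and as not significant in Tnfr1-/-. Pomp, which matures the beta ring, had a log2 change of -0.35 over 6 against 6 arrays (limma adjusted p = 0.285). Pooled after their values were seen, all 8 chaperones of the core and of the base had changes below 0 for loss of TNF receptor 1 (49.4% of all genes). So did 33 of the 34 genes, so the shared sign is not particular to chaperones. Of the 8, Psmd10 and Psmg4 were called (2.52% of all genes). As these calls were known when the 8 were pooled, their share is not read as a result about chaperones.

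Of the other genes of the pathway, 29 were measured. Those called lower in Tnfr1,2-/- numbered 4: the immunoproteasome subunits Psmb8 (8.11-fold), Psmb9 (3.91-fold) and Psmb10 (8.20-fold), and Psme1 (2.12-fold), a subunit of the activator PA28. In Tnfr1-/- 2 were called lower, Psmb8 (4.92-fold) and Psmb10 (6.07-fold), and in Tnfr2-/- 0. For loss of TNF receptor 1 over 12 arrays 5 were called, these 4 and Psmg4, all lower, and for loss of TNF receptor 2 0 were called. None was called higher in these 5 comparisons. No call fell on Psme3, Psme4 and Psmf1 (activators and an inhibitor), on 4 regulatory particle associated proteins, on Psma8 and Psmb11 (subunits of testis and thymus), on the ubiquitin-activating enzyme Uba6 or on 7 shuttle factors and segregase genes. The smallest p among these genes for loss of TNF receptor 1 was that of Rad23b, a shuttle factor, with a log2 change of -0.30 (SE 0.163, limma adjusted p = 0.582). Of 3 transcriptional regulators of the subunits measured, Nfe2l1, which activates proteasome genes when the proteasome is inhibited, had a log2 change of -0.65 for loss of TNF receptor 1 (SE 0.299, limma adjusted p = 0.465). Its arrays were lowest in set 2 in each genotype.

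Since the inducible and constitutive catalytic subunits replace each other in the same beta ring position, their difference was taken on each array. These are differences of log2 signals between probe sets, so their change between genotypes is read and not their size. Psmb8 minus Psmb5 was -1.16 ± 0.14 (SD, n = 6) with TNF receptor 1 and -3.60 ± 0.68 (SD, n = 6) without it. The difference between these means was -2.44, and the arrays did not overlap (exact permutation test, two-sided, p = 0.00216, adjusted over the 3 pairs 0.00325). For Psmb10 minus Psmb7 the means were -0.89 ± 0.43 and -3.52 ± 0.63, differing by -2.63 (exact permutation p = 0.00216, adjusted 0.00325). For Psmb9 minus Psmb6 they were -3.04 ± 0.28 and -4.49 ± 0.62, differing by -1.45, with Tnfr1-/- replicate 2 within the range of the arrays that had TNF receptor 1 (exact permutation p = 0.00649, adjusted 0.00649). The smallest p that 6 against 6 arrays allow is 0.00216. Under 2 alternative settings the change of Psmb8 minus Psmb5, where Psmb8 has 2 probe sets, ranged from -2.44 to -1.37. The other pairs kept their size. The adjusted permutation p then reached 0.0139 for Psmb8 minus Psmb5, 0.0139 for Psmb10 minus Psmb7 and 0.0185 for Psmb9 minus Psmb6. The smallest p that each setting allows is not given here, so these larger values are not read as weaker results. The Tnfr2-/- means of -1.16, -0.85 and -3.04 lay within 1 SD of the wildtype means of -1.17, -0.92 and -3.04. These pairs were chosen with the fall of the inducible subunits on these same arrays known. Their p-values are therefore no independent support for that fall. For loss of TNF receptor 1 the constitutive partners Psmb5, Psmb6 and Psmb7 had log2 changes of -0.26, -0.25 and -0.21. The pairs thus mostly follow the inducible subunits and say little on the constitutive ones.

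**Figure D4:**
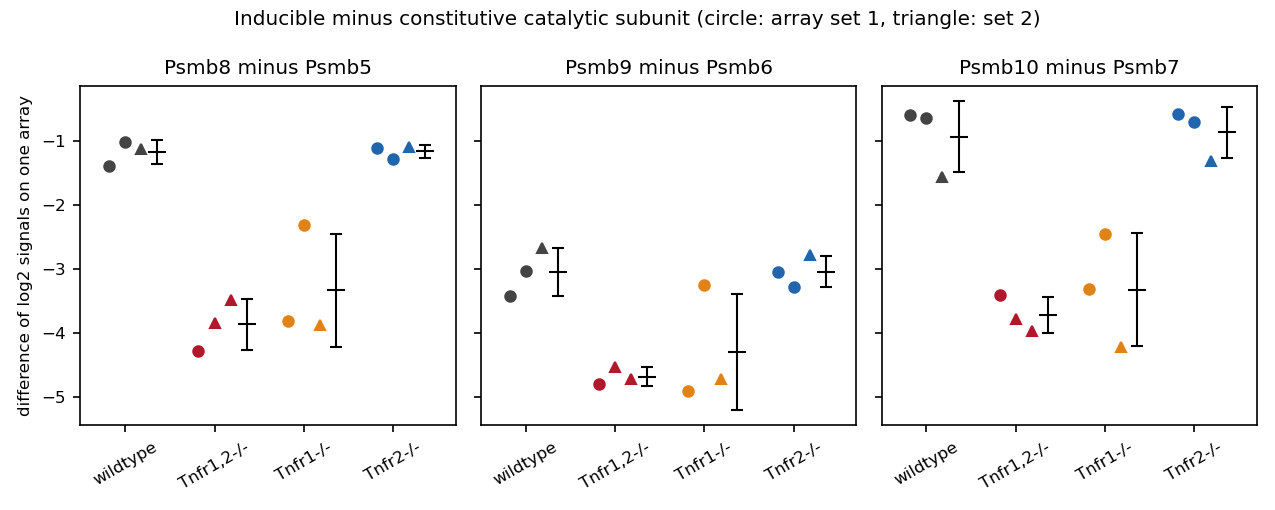
Difference of log2 signals on each array (y axis) between an inducible and the matching constitutive catalytic subunit, by genotype (x axis). Circles are array set 1, triangles array set 2, and bars the mean and SD of 3 arrays. The 6 arrays without TNF receptor 1 average -3.60, -4.49 and -3.52 for the 3 pairs, against -1.16, -3.04 and -0.89 with it.

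Probe sets of the same gene did not always give the same sign. The 34 genes had 72 probe sets with their symbol alone: 15 genes had 1 and 19 had more. In 12 of these 19 every probe set gave the same sign for loss of TNF receptor 1. Bright probe sets were among those that differed. The brightest of Psmc2 gave -0.17 and the next 0.05, and those of Psmc4 gave -0.30 and 0.11. With the mean of all probe sets of a gene in place of the brightest, the median for loss of TNF receptor 1 was -0.16 and 31 of 34 changes were below 0. Values of the 34 genes ranged from 7.38 to 12.8 over all arrays, above the array medians.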

How the data were processed

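The authors hybridized RNA to Affymetrix mouse genome arrays and applied the robust multichip average to all 12 jointly, and the deposited values are log2 signals of 45101 probe sets, used as they are. Per the methods, arrays were compared by the significance analysis of microarrays (SAM) at a q under 5% and at least 1.5-fold, which was run here as an alternative. Probe sets with exactly 1 symbol in the platform annotation (34958) were kept, and those with several (932) or none (9211) were left out, so that some pathway genes, such as Psme2, are not analysed here. Where a gene had several, the brightest on average stood for it, which left 18194 genes. The groups come from the labels.

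Linear models over the 4 genotypes (8 residual degrees of freedom) were fitted with limma 3.58.1 in R 4.3.3, with Benjamini-Hochberg adjustment over all genes. Calls required a change of at least 1.5-fold with an adjusted p under 0.05. The loss of TNF receptor 1 is the mean of Tnfr1-/- and Tnfr1,2-/- minus the mean of wildtype and Tnfr2-/-, and the loss of TNF receptor 2 likewise. Replicate numbers come from the sample titles, which do not say that they mark a shared day or batch. Deviations of same-numbered arrays from their genotype means correlated at 0.62, 0.34 and 0.72 between wildtype and Tnfr1-/-, at 0.55, 0.21 and 0.73 between wildtype and Tnfr2-/-, and at 0.61, -0.13 and 0.48 between wildtype and Tnfr1,2-/-. By the criterion of over 0.1 in every pair, the numbers thus paired the first 2 comparisons and not the third, and values with the number as a block are given. The models were tested on simulated data. Members, lists (other genes of the pathway and cell type markers), array sets, pairs and alternatives were chosen with earlier results of these data known. Named members are the catalytic subunits, those called and the 3 with the largest change in each comparison with wildtype. Values within array sets, differences between the sets and promoter motifs were added as descriptions. Precision is limited by 3 arrays per genotype. Motifs were counted with Python 3.11.15 and pandas 2.3.3, and figures drawn with matplotlib 3.10.9.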

Additional observations from a re-analysis of the deposited data

How the results depend on the processing

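The number of the 34 genes called (1 in Tnfr1,2-/-, Psmd10) was 0 with only the 6 arrays compared (Psmd10 adjusted p = 0.169) and 0 with every probe set tested, and ranged from 0 to 1 with each array left out. In Tnfr1-/- it likewise ranged from 0 to 1 with each array left out. The median log2 change in Tnfr1,2-/- was 0.061 with array weights, and from -0.38 to -0.016 with each array left out, the last without Tnfr1,2-/- replicate 3; the cause was not tested. The calls of 1 gene for loss of TNF receptor 1, and of 0 in Tnfr2-/- and for loss of TNF receptor 2, did not move under any alternative run (mean of probe sets, mean-variance trend, array weights, array set as a block, median centring, cyclic loess, dim probe sets left out, every probe set, no fold threshold, each array left out), and no value changed sign while called. SAM, with 20 relabelings of 3 against 3 arrays, gave the same counts against wildtype. The paper's own SAM result differs for Psmd10: it lists the gene as lower in Tnfr1-/- and as not significant in Tnfr1,2-/-. Counts over all genes moved more: 236 in Tnfr1,2-/- became 1040 with array weights, 388 with the array set as a block and 130 to 269 with an array left out; 219 in Tnfr1-/- became 356, 470 and 118 to 246; and 459 for loss of TNF receptor 1 became 715 with array weights. Of 18 pairs of same-numbered arrays, 15 had deviations correlated over 0.1 (range -0.23 to 0.73), the other 3 being pairs of Tnfr1,2-/- replicate 2, and 8 of 12 arrays correlated best with their own number. With the replicate block the counts over all genes were 597 in Tnfr1,2-/-, 437 in Tnfr1-/- and 730 for loss of TNF receptor 1, and the counts of the 34 genes called were 1, 1 and 1, with 0 in Tnfr2-/-; the block changed no call of a named gene of the 34.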
